A study of Mus musculus with 21 samples.

Results

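The NPY and melanocortin receptors described here are 5 genes, Npy1r, Npy2r, Npy5r, Mc3r and Mc4r, taken by symbol from the 35266 genes of the deposited RNA-Seq tables and followed through every library of the series. The libraries were made from fluorescent neurons of the hypothalamic arcuate nucleus, picked manually, 1 mouse per library and 44 to 214 neurons per mouse. AGRP neurons came from NPY-hrGFP mice, in which Npy control sequence drives the fluorescent protein, and POMC neurons came from Pomc-GFP mice, in which Pomc control sequence does. The sorted AGRP neurons are therefore the NPY-expressing cells of this nucleus. All mice were males on the C57BL/6J background, at postnatal day 46 to 56, and were moved to a fresh cage 24 h before the experiment. Fed mice had food at will (AGRP fed, n = 5; POMC fed, n = 5), and food-deprived (FD) mice had water only (AGRP FD, n = 6; POMC FD, n = 5). Body weight changed by -19.4% ± 1.75 (SD, n = 3 mice with a recorded starting weight) in AGRP FD mice and by -17.7% ± 1.64 (SD, n = 5) in POMC FD mice, against 0.622% ± 0.224 (n = 3) and 0.954% ± 0.915 (n = 5) in the fed groups.

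AGRP neurons release AGRP and NPY and promote feeding, and POMC neurons release melanocortin peptides cut from the POMC precursor and restrain it. NPY acts on receptors of the Y family, which couple to Gi/o proteins and lower cAMP. The Y1 and Y5 receptors (Npy1r, Npy5r) are the main postsynaptic receptors through which NPY stimulates feeding, and the Y2 receptor (Npy2r) is the presynaptic autoreceptor of NPY neurons, which also binds the gut peptide PYY. The melanocortin receptors of the brain, Mc3r and Mc4r, couple to Gs proteins, are activated by the POMC product alpha-MSH and are blocked by AGRP. Mc3r is known as a receptor of the arcuate nucleus itself, whereas Mc4r is best known from the target regions of these neurons, such as the paraventricular nucleus.

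Total gene counts ran from 9822298 to 37663979 per library (median 19189780), so that 3 counts, the floor used here for detection, corresponded to 0.0797 to 0.305 CPM (counts scaled by the library total). The sort matched its labels: the summed TPM (counts scaled by gene length and library, so that levels can be compared between genes) of Agrp and Npy was 12064 to 68921 in AGRP libraries and 5.45 to 226 in POMC libraries, and that of Pomc and Cartpt was 8809 to 37160 in POMC libraries and 114 to 227 in AGRP libraries. Over 18 markers of astrocytes, oligodendrocytes, microglia, endothelial cells and tanycytes, the summed level was 40.7 to 61.1 TPM in AGRP fed, 29.4 to 51.0 in AGRP FD, 32.7 to 45.2 in POMC fed and 30.3 to 63.5 in POMC FD libraries, with 10 to 12 of the 18 below a mean of 1 TPM in each group. Of these markers 1 passed the test with food deprivation in AGRP neurons, the astrocyte gene Aldh1l1 (0 to 0.045 TPM in AGRP fed and 0.217 to 5.15 TPM in AGRP FD libraries), which entered the test only through AGRP FD libraries, and its part in the receptor results was not tested. Over 4 markers of other arcuate neurons (Kiss1, Tac2, Ghrh and Th), the summed level was 2.71 to 10.8 TPM in AGRP fed, 1.47 to 29.8 in AGRP FD, 0.661 to 5.34 in POMC fed and 0 to 21.7 in POMC FD libraries, and Kiss1 was at 0 in 3 of the 4 groups. Each library is a pool of sorted cells, so fewer cells expressing a receptor and less RNA per cell cannot be told apart.

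On the mm10 build (GRCm38), Npy2r (ENSMUSG00000028004) spans positions 82538383 to 82548084 of the minus strand of chromosome 3, with 2 exon blocks in the Gencode M21 annotation. Npy1r (ENSMUSG00000036437) spans positions 66697422 to 66706798 of the plus strand of chromosome 8, with 5 exon blocks. Npy5r (ENSMUSG00000044014) is its neighbour on the minus strand, at positions 66679965 to 66688094 and with 3 exon blocks, and the starts of both genes lie 9328 bases apart, facing away from each other. Mc3r (ENSMUSG00000038537) is a single-exon gene at positions 172248492 to 172251114 of the plus strand of chromosome 2. The exons of the 5 genes share no bases with exons of another gene in that annotation, which matters because the reads were counted without regard to strand.

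RefSeq promoter windows on GRCm38.p6 matched Npy1r, Npy2r, Npy5r and Mc3r; Mc4r was not matched. The bases before the RefSeq start are shown for Npy2r, the receptor whose transcript fell with food deprivation, and for Npy5r and Mc3r, whose changes in the same neurons did not pass the test. The windows are chr3:82548086-82548335 (minus strand), chr8:66688129-66688344 (minus strand, 34 bases next to the start left out because Gencode counts them as exon) and chr2:172248242-172248491 (plus strand). Capitals mark matches to any of 7 motifs searched on both strands.
Npy2r: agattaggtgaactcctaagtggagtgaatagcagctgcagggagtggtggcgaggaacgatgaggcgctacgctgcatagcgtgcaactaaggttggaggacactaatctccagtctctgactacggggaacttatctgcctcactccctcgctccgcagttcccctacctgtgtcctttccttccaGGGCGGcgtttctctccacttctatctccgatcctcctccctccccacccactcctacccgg
Npy5r: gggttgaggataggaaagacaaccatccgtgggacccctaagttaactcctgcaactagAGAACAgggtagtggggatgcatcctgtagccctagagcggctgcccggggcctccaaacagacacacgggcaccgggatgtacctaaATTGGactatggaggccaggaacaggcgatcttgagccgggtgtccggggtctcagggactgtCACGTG
Mc3r: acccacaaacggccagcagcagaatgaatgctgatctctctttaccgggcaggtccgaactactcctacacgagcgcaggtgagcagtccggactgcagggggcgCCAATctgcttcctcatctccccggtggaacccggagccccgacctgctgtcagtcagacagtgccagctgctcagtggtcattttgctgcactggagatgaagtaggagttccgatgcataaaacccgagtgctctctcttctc
The motifs were the cAMP response element core TGACG, the E-box CACGTG, the STAT site TTCNNNGAA, the forkhead site TGTTTAC, the glucocorticoid receptor core AGAACA, the GC box GGGCGG and the CCAAT box. The Npy2r window held 1 GC box, starting 62 bases before the start, a motif found in 32.7% of 32851 windows of 250 bases. The Npy5r window held 1 E-box (6.02% of windows), 1 glucocorticoid receptor core (16.1%) and 1 CCAAT box (33.8%), and the Mc3r window held 1 CCAAT box. The cAMP response element core (17.8% of windows), the STAT site (7.02%) and the forkhead site (3.17%) were not among the letters of the 3 windows. GC content was 56.8%, 58.3% and 57.6% for Npy2r, Npy5r and Mc3r, against a median of 52.4% over all windows. For Npy1r, 230 of the 250 bases are exon in Gencode M21 and the window is not shown.

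Npy2r fell in AGRP neurons with food deprivation, and no other receptor passed the test in these cells. In AGRP fed libraries Npy2r stood at 573, 493, 551, 687 and 497 TPM (replicates 1 to 5), and in the 6 AGRP FD libraries it ranged from 51.0 to 191 TPM with a median of 83.9. The lowest fed library was above the highest FD library, so the groups did not overlap. The fitted change was -2.30 on the log2 scale (SE 0.23, 95% interval -2.78 to -1.83), a 4.94-fold lower level, with an adjusted p of 6.30e-08 by edgeR's quasi-likelihood test with Benjamini-Hochberg adjustment over all 16513 genes tested. Of all genes tested in AGRP neurons, 10.3% passed in either direction, 5.87% higher and 4.43% lower in FD. The receptors that passed the filter on low counts numbered 4, and 1 of these, Npy2r, was called.

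Npy2r was lower in AGRP FD than in AGRP fed libraries in each of the 3 spike-in sets, into which the libraries divide by how much ERCC control RNA was added before amplification. On the log2(CPM + 1) scale the mean of AGRP FD less that of AGRP fed was -2.94 with 1 library against 1, -2.45 with 2 against 2 and -2.18 with 3 against 2, and the libraries did not overlap in the latter sets. AGRP FD replicate 2, given 1 µl for 50 cells, fits both the set with a fixed 1 µl and the set with a volume scaled to the cells, and was placed in the second. Placed in the first, the difference was -2.72 with 2 against 1 and -1.98 with 2 against 2, without overlap. So few libraries can fail to overlap without any difference, and the share of all genes that did so was not computed. The call was kept with each of the 11 AGRP libraries left out in turn. It was lost when libraries were scaled to ERCC reads per cell in place of the genes, where the change was -2.18 with an adjusted p of 0.239, and under that scaling 97 genes in all were called in place of 1700. The gene counts per ERCC read, corrected for volume and cells, spread from 0.567 to 9.11 between libraries, and the 6 libraries given the largest volume had the 6 lowest values.

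**Figure D1:**
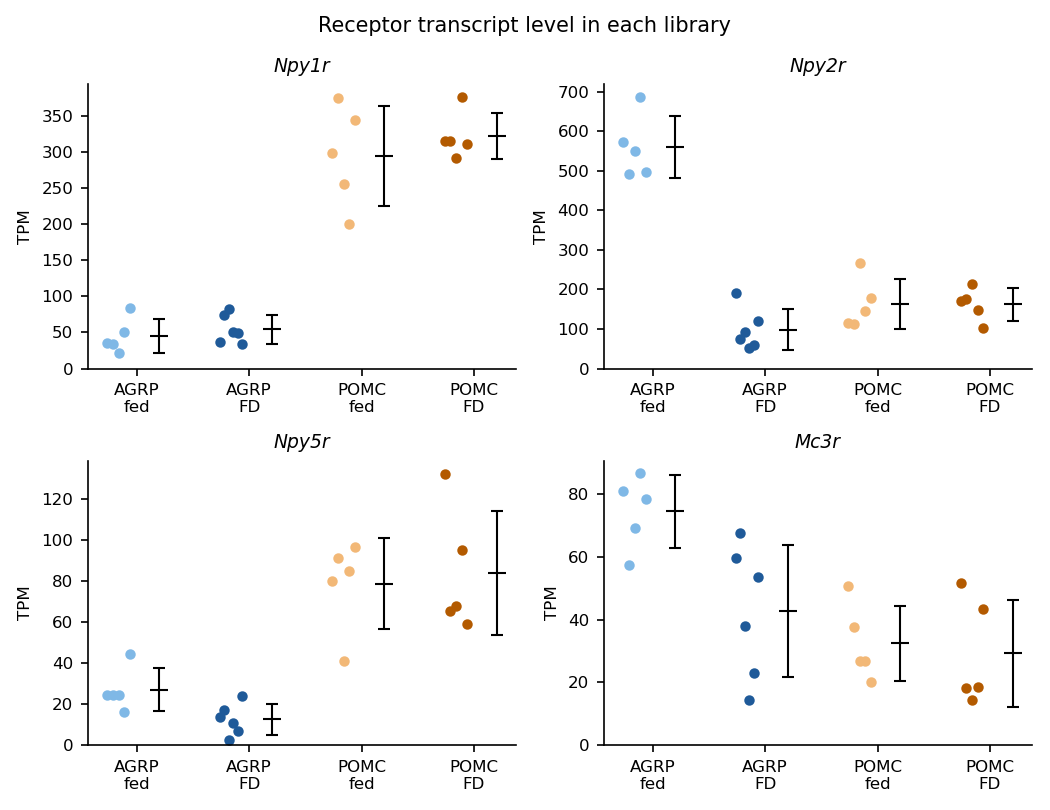
Transcript level (TPM, y axis, from 0, a separate scale per panel) of Npy1r, Npy2r, Npy5r and Mc3r in each library by group, with the mean and SD as a bar to the right of the points. Npy2r separates AGRP fed libraries, at 493 to 687 TPM, from the other groups, and Npy1r separates POMC libraries, at 200 TPM or more, from AGRP libraries.

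Npy1r, a receptor through which NPY acts on its target neurons, was low in AGRP neurons. It stood at 35.6, 33.7, 22.2, 50.6 and 83.9 TPM in AGRP fed libraries and at 33.6 to 82.1 TPM, with a median of 50.2, in AGRP FD libraries. In TPM the FD range lay inside the fed range. In CPM scaled as for the test it did not, at 18.7 to 72.6 in AGRP fed and 32.1 to 81.9 in AGRP FD libraries. The fitted change was 0.54 (SE 0.27, 95% interval -0.020 to 1.09, adjusted p = 0.245, edgeR). Without AGRP fed replicate 5, the highest fed library, the change in Npy1r was 0.89 with an adjusted p of 0.0282.

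Npy5r stood at 24.5, 24.6, 24.4, 16.3 and 44.5 TPM in AGRP fed libraries and at 2.45 to 23.9 TPM, with a median of 12.2, in AGRP FD libraries. In TPM the ranges met only between the lowest fed library and the 2 highest FD libraries, at 17.3 and 23.9 TPM. In CPM scaled as for the test they overlapped more, at 10.6 to 29.6 in AGRP fed and 1.88 to 17.6 in AGRP FD libraries. There the highest FD library lay above every fed library but the highest. The change of -0.87 (SE 0.38, 95% interval -1.65 to -0.090) had an adjusted p of 0.164 by edgeR. It passed with an adjusted p of 0.0367 by limma on log2(TPM + 1), where the change in Npy5r was -1.23 and the median of all genes was itself at -0.28.

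Mc3r, through which AGRP neurons can sense the melanocortin peptides, stood at 81.2, 57.3, 69.1, 86.9 and 78.5 TPM in AGRP fed libraries and at 14.4 to 67.6 TPM, with a median of 45.7, in AGRP FD libraries. Only 2 FD libraries, replicates 1 and 2, reached the level of the lowest fed library. The change was -0.57 (SE 0.36, 95% interval -1.32 to 0.17, adjusted p = 0.386, edgeR).

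In POMC neurons none of the 4 receptors passed the test with food deprivation, where 0.375% of all genes did (0.182% higher and 0.194% lower). At an unadjusted p under 0.05 the count for the receptors was also 0 by edgeR. The share of all genes at that threshold was not computed, so this count is only a description. No receptor was called by limma-voom or DESeq2. Npy1r stood at 299, 375, 257, 200 and 345 TPM in POMC fed libraries and at 316, 316, 292, 376 and 311 TPM in POMC FD libraries, and all FD values lay within or next to the fed range. Its change was -0.011 (SE 0.28, 95% interval -0.58 to 0.56, adjusted p = 0.995, edgeR).

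Npy2r in POMC neurons stood at 116, 112, 267, 145 and 178 TPM when fed and at 170, 175, 214, 149 and 102 TPM when deprived. The change was -0.10 (SE 0.24, 95% interval -0.59 to 0.38, adjusted p = 0.919, edgeR), and the interval did not reach the change seen in AGRP neurons. Npy5r stood at 80.1, 91.2, 41.0, 84.9 and 96.3 TPM when fed and at 132, 65.3, 67.8, 94.8 and 59.0 TPM when deprived, a change of -0.043 (SE 0.39, 95% interval -0.85 to 0.76). Both receptors overlapped widely between the groups.

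Mc3r in POMC neurons stood at 50.8, 37.6, 27.0, 26.7 and 20.2 TPM when fed and at 51.8, 18.2, 14.4, 18.4 and 43.4 TPM when deprived. Of the FD libraries 3 lay below the lowest fed library, and the other two lay within or just above the fed range. The change was -0.31 (SE 0.38, 95% interval -1.10 to 0.47, adjusted p = 0.824, edgeR).

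Whether food deprivation acted differently on a receptor in AGRP and in POMC neurons was tested as an interaction, the change in AGRP neurons less that in POMC neurons. It was called for Npy2r (-2.20, SE 0.33, 95% interval -2.87 to -1.52, adjusted p = 7.97e-05, edgeR) and for 1 of the 4 receptors in all. Of all genes tested, 6.71% had a called interaction, 4.08% with a positive and 2.63% with a negative value. The interaction was 0.55 (SE 0.39, 95% interval -0.25 to 1.34) for Npy1r, -0.83 (SE 0.55, 95% interval -1.95 to 0.30) for Npy5r and -0.26 (SE 0.53, 95% interval -1.34 to 0.82) for Mc3r. For these 3 receptors a difference of the size in Npy2r lay outside the interval of each. The call for Npy2r was kept with each of the 21 libraries left out in turn and was lost with ERCC scaling per cell (-1.19, adjusted p = 0.674).

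**Figure D2:**
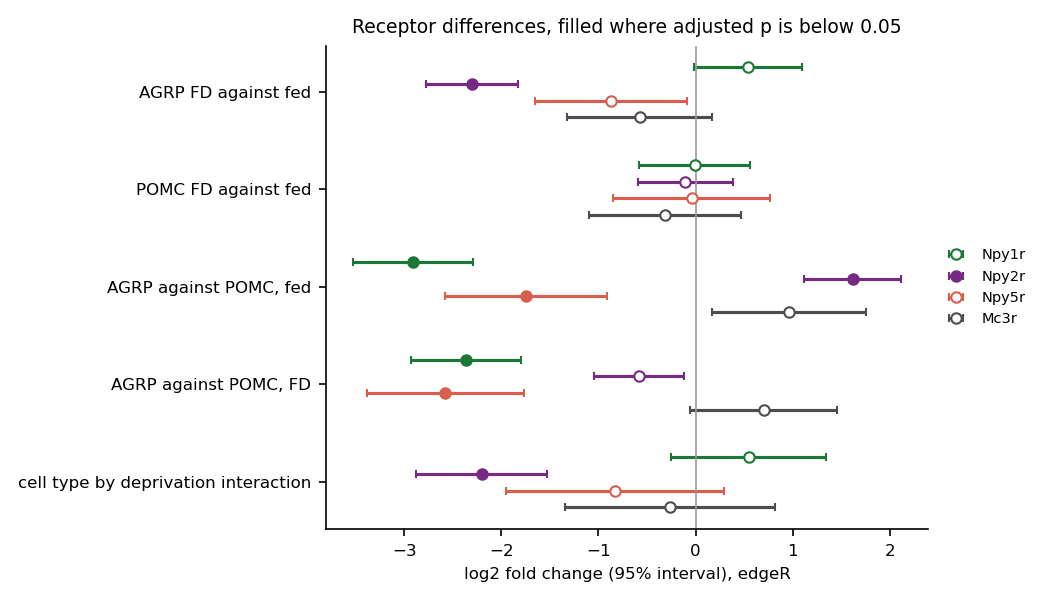
Log2 fold changes (x axis) with 95% intervals from edgeR for the 4 receptors tested, in 5 comparisons (y axis), with filled points where the adjusted p was below 0.05. Npy2r stands apart in AGRP FD against fed, at -2.30, and in the interaction, at -2.20, and no point is filled in POMC FD against fed.

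The receptors of the fed neurons differed between the cell types in both directions. In fed mice Npy1r was lower in AGRP than in POMC neurons (-2.91, SE 0.30, 95% interval -3.52 to -2.29, adjusted p = 2.73e-08, edgeR), a 7.50-fold difference, and every POMC fed library, at 200 TPM or more, was above every AGRP fed library, at 83.9 TPM or less. Npy5r was also lower in AGRP neurons (-1.75, SE 0.41, 95% interval -2.58 to -0.91, adjusted p = 0.00487), with the ranges meeting between POMC fed replicate 3, at 41.0 TPM, and AGRP fed replicate 5, at 44.5 TPM. Npy2r was higher in AGRP neurons (1.62, SE 0.24, 95% interval 1.12 to 2.11, adjusted p = 1.94e-05), a 3.06-fold difference without overlap. These 3 of the 4 receptors were called, 1 higher and 2 lower in AGRP neurons, where 7.57% of all genes were, 3.33% higher and 4.24% lower.

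Mc3r had a higher level in AGRP fed libraries, at 57.3 to 86.9 TPM, than in POMC fed libraries, at 20.2 to 50.8 TPM, with no overlap in TPM. In CPM scaled as for the test the ranges did overlap, at 46.0 to 63.9 in AGRP fed and 15.7 to 49.6 in POMC fed libraries. The share of all genes without overlap between these groups was not computed. The fitted difference of 0.96 (SE 0.39, 95% interval 0.17 to 1.75) had an adjusted p of 0.143 by edgeR. It passed by limma-voom (1.08, adjusted p = 0.0434), by limma on log2 TPM (1.23, adjusted p = 0.0457) and by edgeR on these 2 groups alone (0.96, adjusted p = 0.0470).

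After food deprivation the cell types differed in Npy1r (-2.36, SE 0.28, 95% interval -2.92 to -1.80, adjusted p = 1.53e-07, edgeR) and in Npy5r (-2.57, SE 0.39, 95% interval -3.38 to -1.77, adjusted p = 1.19e-05), both lower in AGRP neurons and without overlap in TPM. Thus 2 of the 4 receptors were called, both lower in AGRP FD, where 18.6% of all genes were, 9.28% higher and 9.27% lower. Npy2r, which was higher in AGRP neurons when fed, was at -0.58 (SE 0.23, 95% interval -1.05 to -0.12, adjusted p = 0.0714, edgeR) when deprived. This value for Npy2r passed without AGRP FD replicate 1 (-0.82, adjusted p = 0.00476), without POMC FD replicate 5 (-0.71, adjusted p = 0.0322) and by limma-voom (-0.75, adjusted p = 0.0230), and it was 0.65 with ERCC scaling per cell. Mc3r was at 0.70 (SE 0.37, 95% interval -0.059 to 1.46, adjusted p = 0.206). Th, which makes dopamine in other arcuate neurons, was the only marker of their 4 that passed the filter on low counts. It was called in this comparison (3.73, adjusted p = 0.00880, edgeR), at 1.35 to 29.8 TPM in AGRP FD and 0 to 2.15 TPM in POMC FD libraries. Tac2, not tested, went the other way, at 0 TPM in AGRP FD and 0 to 20.7 TPM in POMC FD libraries. The part of Th and Tac2 in the receptor differences was not tested.

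The spike-in sets were spread unevenly over the groups: no POMC fed library was in the set given 10 µl of diluted ERCC RNA, and no POMC FD library was in the set given a volume scaled to the cells. Within the sets that hold both cell types, Npy1r was lower in AGRP than in POMC fed libraries by -2.98 (1 against 3) and -2.69 (2 against 2) and in FD libraries by -2.45 (1 against 3) and -2.77 (2 against 2), on the log2(CPM + 1) scale and without overlap. Npy5r differed by -1.59 and -1.95 in the fed and by -3.27 and -1.88 in the FD libraries of the same sets, and Npy2r by 1.44 and 2.00 in the fed libraries, all without overlap. In the FD libraries Npy2r differed by -1.45 without overlap and by -0.40 with overlap. With AGRP FD replicate 2 in the 1 µl set (2 against 3), the FD differences there were -2.10 for Npy1r, -2.59 for Npy5r and -1.23 for Npy2r, all without overlap. Groups of 1 to 3 libraries can fail to overlap without any difference. The share of all genes without overlap in these sets was not computed, so the values within sets are descriptions.

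By mean TPM, Npy1r was ordered POMC FD (322 ± 31.6, SD, n = 5), POMC fed (295 ± 69.6, n = 5), AGRP FD (54.4 ± 19.8, n = 6) and AGRP fed (45.2 ± 23.9, n = 5), and only the step from POMC fed to AGRP FD was free of overlap. Npy2r was ordered AGRP fed (560 ± 78.7), POMC fed (164 ± 63.5), POMC FD (162 ± 41.1) and AGRP FD (98.5 ± 51.9), and only the first step was free of overlap. Npy5r was ordered POMC FD (83.8 ± 30.2), POMC fed (78.7 ± 22.0), AGRP fed (26.9 ± 10.5) and AGRP FD (12.4 ± 7.65), with overlap at every step. Mc3r was ordered AGRP fed (74.6 ± 11.6), AGRP FD (42.7 ± 21.1), POMC fed (32.4 ± 12.0) and POMC FD (29.2 ± 17.1), also with overlap at every step.

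The order of the receptors by mean TPM differed between the cell types. In AGRP fed neurons Npy2r exceeded the next receptor, Mc3r, in 5 of 5 libraries, and Mc3r exceeded Npy1r in 4 of 5. In AGRP FD neurons Npy2r was still above Npy1r in 6 of 6 libraries, but Npy1r exceeded Mc3r in only 4 of 6. In POMC neurons Npy1r led, above Npy2r in 4 of 5 fed and 5 of 5 FD libraries, and Npy2r, Npy5r and Mc3r followed in that order in every POMC library.

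The ratio of Npy2r to Npy1r within a library, in TPM, had a median of 14.6 in AGRP fed (range 5.92 to 24.9), 1.17 in AGRP FD (range 1.00 to 5.28), 0.515 in POMC fed (range 0.300 to 1.04) and 0.538 in POMC FD libraries (range 0.327 to 0.732). The AGRP groups did not overlap in this ratio and the POMC groups did. Npy2r made up 88.5% ± 5.18 (SD, n = 5) of the summed TPM of the 3 NPY receptors in AGRP fed neurons and 56.9% ± 13.8 (SD, n = 6) in AGRP FD neurons, while Npy1r went from 7.12% ± 3.70 to 35.4% ± 14.4 of it. The sum itself was 551 to 754 TPM in AGRP fed and 113 to 241 TPM in AGRP FD libraries. In POMC neurons Npy1r made up 54.6% ± 8.48 of the sum in fed and 57.1% ± 6.42 in FD libraries. The ratio of Npy2r to Mc3r had a median of 7.90 in AGRP fed (range 6.33 to 8.60) and of 2.52 in AGRP FD libraries (range 1.11 to 3.54), again without overlap. These ratios and shares are descriptions and were not tested.

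**Figure D3:**
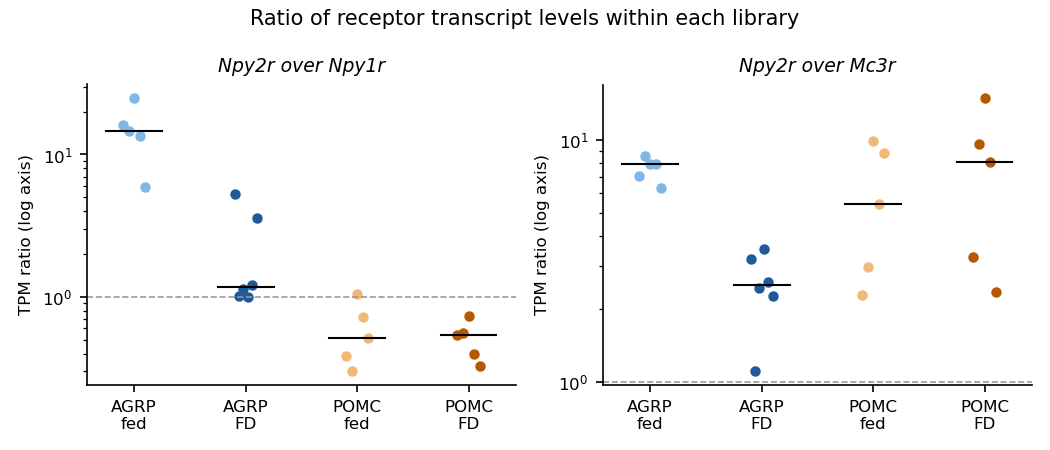
Ratio of Npy2r to Npy1r (left) and of Npy2r to Mc3r (right) in TPM within each library (y axis, logarithmic), by group, with the group median as a bar and a dashed line at a ratio of 1. The AGRP fed libraries lie above the AGRP FD libraries in both panels, and the Npy2r to Npy1r ratio is above 1 in all 11 AGRP libraries and in 1 of 10 POMC libraries.

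Mc4r, the melanocortin receptor best known for its role in body weight, was at or near the detection floor and did not pass the filter on low counts, so it was not tested. The gene (ENSMUSG00000047259) has a single exon, at positions 66857715 to 66860472 of the minus strand of chromosome 18. It had 0 counts in 14 of 21 libraries, and 4 libraries exceeded 3 counts. In AGRP fed libraries it was counted at most once, and in AGRP FD libraries it reached 5 and 8 counts in replicates 4 and 5 (0.141 and 0.438 TPM). In POMC FD libraries it had 7 and 3 counts in replicates 4 and 5 (0.845 and 0.263 TPM). The exception was POMC fed replicate 4, with 91 counts (5.73 TPM), where the other 4 POMC fed libraries had 0 or 1 count. No fold is given for Mc4r.

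The remaining receptors of both families were also low. Mc5r, a melanocortin receptor known from exocrine glands, stood at 17.2 TPM (115 counts) in the same POMC fed replicate 4 and at 0 counts in the other POMC fed libraries. It reached 5.93 TPM in AGRP fed and 0.807 TPM in AGRP FD libraries at most. Mc1r, the receptor of pigment cells, had at most 62 counts in any library (2.98 TPM at most), and neither Mc1r nor Mc5r was called in any comparison. Mc2r, the ACTH receptor, and Npy6r had 0 counts in all 21 libraries. The floor of 3 counts would have corresponded to at most 0.305 CPM.

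Npy4r, the receptor preferred by pancreatic polypeptide, was detected mainly in AGRP fed neurons. Its counts there were 95, 12, 62, 155 and 5 (4.41, 0.595, 3.71, 7.23 and 0.257 TPM), and they were 0 to 8 in AGRP FD, 0 to 2 in POMC fed and 0 in POMC FD libraries. It passed the filter on low counts only through 3 AGRP fed libraries, the group where it was high, so its tests are given no weight here. Its mean of 3.54 CPM in AGRP fed libraries was 21.5-fold the highest floor of 3 counts per library in POMC fed, 0.165 CPM. The mean rests mainly on the libraries that let Npy4r pass the filter. The fold is therefore a description of these libraries and no measure of a cell type difference.

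**Figure D4:**
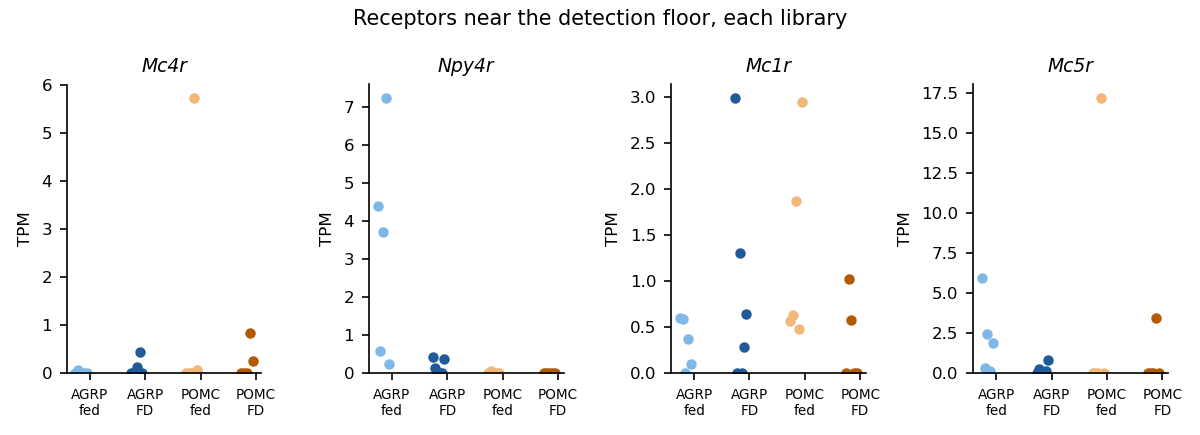
Transcript level (TPM, y axis, from 0, a separate scale per panel) of Mc4r, Npy4r, Mc1r and Mc5r in each library by group. Mc4r, at 5.73 TPM, and Mc5r, at 17.2 TPM, are high in 1 POMC fed library, replicate 4, and Npy4r is highest in AGRP fed libraries.

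The ligands, partners and effectors of these receptors were followed as a list of 49 genes, of which 48 were in the tables and 43 were tested. In AGRP neurons 8 were higher and 3 lower after food deprivation, where 5.87% and 4.43% of all genes tested were. The list median was 0.053 on the log2 scale against -0.023 over all genes. In POMC neurons 1 was higher and 0 were lower (0.182% and 0.194% of all genes), with a list median of -0.11 against -0.024. The interaction was called for 8, of which 6 were positive and 2 negative, where 4.08% and 2.63% of all genes were. With ERCC scaling per cell none of the calls of Agrp, Mrap2, Pcsk1, Cpe, Gnas, Gnal and Arrb1 in AGRP FD against fed was kept (adjusted p from 0.512 to 1, edgeR). The changes themselves stayed on the same side of 0, at 1.78 for Agrp, -1.38 for Mrap2, 1.40 for Pcsk1, 0.99 for Cpe, 0.70 for Gnas, -1.19 for Gnal and 1.45 for Arrb1. The other list genes called in that comparison were not followed under this scaling.

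Among the ligands, Agrp, the natural antagonist of Mc3r and Mc4r, rose in AGRP neurons by 2.08 (SE 0.39, adjusted p = 0.000531, edgeR), from 3455 ± 1153 TPM (SD, n = 5) to 12050 ± 5194 TPM (n = 6). Npy, the agonist of the Y receptors, went from 12895 ± 3277 to 35821 ± 10037 TPM, a change of 1.74 (SE 0.59) that missed the threshold by edgeR (adjusted p = 0.0558). Over the 10 alternatives, of which 4 called Npy, its adjusted p ran from 1.47e-07 (limma-voom) to 0.678 (ERCC scaling per cell). By edgeR on the AGRP groups alone it was 3.45e-05. The paper reported Npy as upregulated. Pomc, the precursor of the melanocortin agonists, went from 16029 ± 4652 to 10743 ± 2129 TPM in POMC neurons, a change of -0.73 (SE 0.39, adjusted p = 0.473, edgeR). Its adjusted p ran from 0.0377 to 0.684 over the 10 alternatives, of which 1 called it. The paper, which tested by limma-voom, reported a modest decrease. Agrp and Npy in POMC libraries stood at means of 15.5 and 33.9 TPM when fed and 46.0 and 78.9 TPM when deprived. Their changes were 1.50 (adjusted p = 0.102, edgeR) and 1.19 (adjusted p = 0.469). Of the 10 alternatives 1 called Agrp there, with adjusted p from 0.0286 to 0.842 over all of them. Pomc in AGRP libraries changed by -0.13 (adjusted p = 0.898, edgeR). Pyy and Ppy, the gut ligands of the family, exceeded 3 counts in 2 and 1 libraries.

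Of 6 enzymes that cut, finish or break down these peptides, 4 were higher and none were lower in AGRP FD than in AGRP fed neurons, against 5.87% and 4.43% of all genes tested. Pcsk1, the prohormone convertase that opens the POMC and AGRP precursors, rose by 1.69 (SE 0.23, adjusted p = 6.52e-06, edgeR), from 100 ± 28.4 to 265 ± 66.1 TPM. Cpe, which trims the cut ends, rose by 1.25 (SE 0.26, adjusted p = 0.00145). In POMC neurons none of the 6 was called, and the interaction was called for Pcsk1 (1.58, adjusted p = 0.00190), Cpe (1.32, adjusted p = 0.0249) and Pam, the peptide-amidating enzyme (1.04, adjusted p = 0.00139). With each of the 21 libraries left out in turn, the Cpe interaction lost its call in 2 cases (adjusted p up to 0.0556, edgeR). It was also lost under 3 of 9 alternatives.

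Mrap2, an accessory protein that binds melanocortin receptors and alters their signalling, fell in AGRP neurons by 1.11 on the log2 scale (SE 0.27, adjusted p = 0.00763, edgeR), from 58.3 ± 21.9 to 23.1 ± 10.4 TPM, and was the only one of 5 tested accessory genes called there. In POMC neurons Mrap2 went from 96.7 ± 24.1 to 106 ± 17.1 TPM (-0.0083, adjusted p = 0.997), and its interaction was not called (-1.10, adjusted p = 0.0933). Mrap2 was lower in AGRP than in POMC neurons when fed (-0.94, adjusted p = 0.0393) and when deprived (-2.05, adjusted p = 2.07e-06), and the difference in fed mice was lost without any of 6 single libraries, AGRP fed replicates 2, 3 and 5 and POMC fed replicates 1, 2 and 3, with adjusted p up to 0.128. Atrnl1, a relative of attractin, was lower in AGRP than in POMC neurons when fed (-2.90, adjusted p = 2.37e-06) and when deprived (-3.22, adjusted p = 7.43e-08). Mrap was at 0 in 20 of 21 libraries.

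Among the G proteins, Gnas and Gnal, which encode Gs-type alpha subunits that stimulate adenylyl cyclase, moved in opposite directions in AGRP neurons. Gnas rose by 0.83 (SE 0.16, adjusted p = 0.000918, edgeR), from 199 ± 23.9 to 294 ± 64.7 TPM, and Gnal fell by 1.03 on the log2 scale (SE 0.14, adjusted p = 1.20e-05), from 312 ± 44.0 to 130 ± 25.3 TPM. The interaction was called for both, at 1.02 for Gnas (adjusted p = 0.00672) and -0.85 for Gnal (adjusted p = 0.0101). Of the 5 Gi/o alpha subunits, through which the Y receptors act, 1 was called lower in AGRP FD, where 4.43% of all genes were. This was Gnai1 (-0.49, SE 0.14, adjusted p = 0.0243, edgeR). None was called in POMC neurons with food deprivation, where 0.375% of all genes were. Gnai1 was also lower in AGRP than in POMC neurons, both when fed (-1.28, adjusted p = 3.25e-07) and when deprived (-1.75, adjusted p = 1.46e-10).

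Of the 8 adenylyl cyclases 1, Adcy2, was higher in AGRP neurons with food deprivation, where 5.87% of all genes were. Adcy2 rose by 1.38 (SE 0.39, adjusted p = 0.0209, edgeR), from 48.0 ± 7.30 to 105 ± 16.9 TPM, with a called interaction of 1.91 (adjusted p = 0.0357). In POMC neurons 1, Adcy6, was higher, where 0.182% of all genes were. Adcy6 rose by 1.06 (SE 0.20, adjusted p = 0.00659, edgeR), from 28.6 ± 8.02 to 63.8 ± 7.72 TPM. The interaction for Adcy6 was -0.92 (adjusted p = 0.0364). Of 6 genes of receptor desensitization 1 was called in AGRP neurons with food deprivation, where 10.3% of all genes were. This was Arrb1, an arrestin that uncouples activated receptors. Arrb1 rose by 1.35 (SE 0.20, adjusted p = 3.91e-05, edgeR), from 27.5 ± 7.18 to 58.9 ± 16.8 TPM, with a called interaction of 1.50 (adjusted p = 0.00119). The other arrestin on the list, Arrb2, was at -0.67 (adjusted p = 0.221, edgeR) and was not called. None of the 5 inward rectifier channel genes was called with food deprivation in AGRP or POMC neurons, where 10.3% and 0.375% of all genes were.

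**Figure D5:**
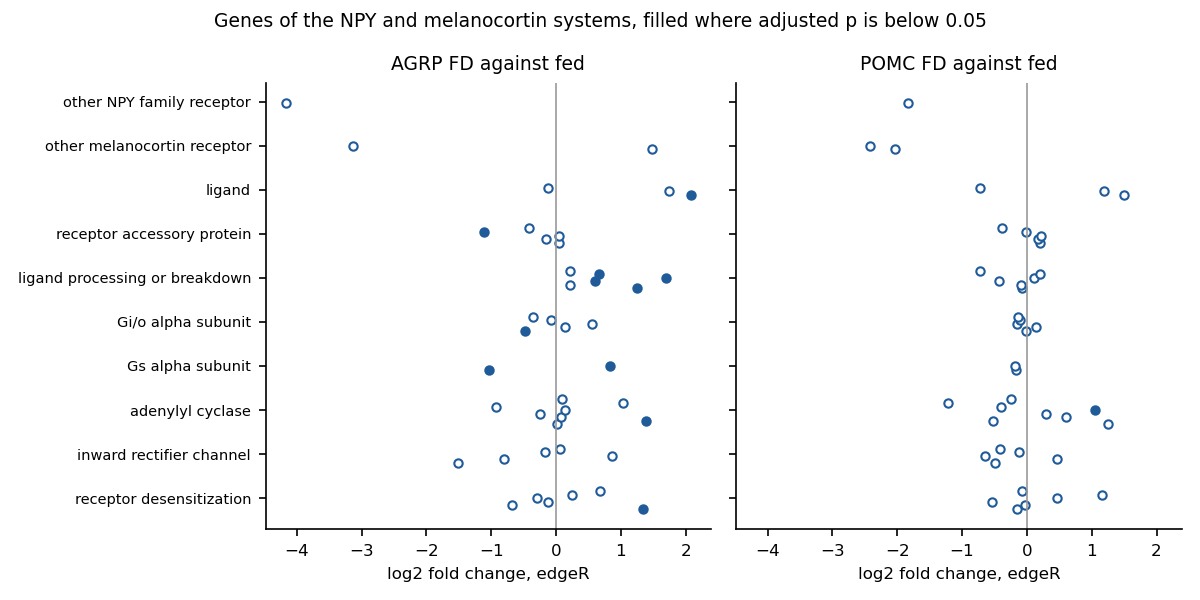
Log2 fold changes from edgeR (x axis) of the 43 tested list genes by role (y axis), in AGRP FD against fed (left) and POMC FD against fed (right), 1 point per gene, filled where the adjusted p was below 0.05. Of the points 11 are filled in AGRP neurons, 8 to the right of 0, and 1 in POMC neurons.

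Between the cell types, 7 list genes were higher and 9 lower in AGRP than in POMC neurons when fed, where 3.33% and 4.24% of all genes were (list median -0.063, all genes -0.012). Of the 7, 1 is Npy4r, admitted to the test only by AGRP fed libraries. When deprived 8 were higher and 7 lower, where 9.28% and 9.27% of all genes were (list median -0.059, all genes -0.0038). The ligands that define the cells were among the list genes with the lowest adjusted p. In fed mice Npy and Agrp were higher in AGRP neurons by 8.52 (adjusted p = 6.48e-09, edgeR) and 7.69 (adjusted p = 3.71e-12) on the log2 scale, and Pomc was at -8.74 (adjusted p = 7.23e-13). In deprived mice the values were 9.07 (adjusted p = 1.49e-09), 8.27 (adjusted p = 9.02e-13) and -8.14 (adjusted p = 3.72e-13). Arrb1 was lower in AGRP than in POMC neurons when fed (-1.04, adjusted p = 0.000972), and Pam was higher in AGRP neurons when deprived (1.29, adjusted p = 5.15e-08).

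Genes whose pattern was most like that of a receptor were ranked by Pearson's r of log2(CPM + 1) over the 21 libraries, among 8199 genes with a mean above 20 CPM in at least 1 group. All points share the 4 groups, so r mainly reflects the group means. For Npy2r the nearest were Gnal (r = 0.91), Kndc1 (0.91) and AW551984 (0.90), each with its highest mean in AGRP fed and its lowest in AGRP FD neurons (Kndc1 at 161 ± 27.3 and 55.4 ± 14.9 TPM). For Npy1r they were Slc18a2, the vesicular monoamine transporter (r = 0.96, 8.20 ± 2.99 TPM in AGRP fed and 135 ± 11.0 TPM in POMC fed neurons), Prokr1, a prokineticin receptor (0.94), and Trim36 (0.94). For Npy5r they were Maoa, which breaks down monoamines (0.92), Hspa12a (0.92) and Ptprt (0.92), all higher in POMC than in AGRP libraries by group mean and lowest in AGRP FD. For Mc3r they were Pml (0.84), Tmem50b (0.81) and Slc1a1, a glutamate transporter (0.81), highest by mean in AGRP fed neurons.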

How the data were processed

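RNA-Seq was analysed in 21 libraries of sorted AGRP and POMC neurons, grouped by the sample labels. The authors removed adaptors with cutadapt 1.7.1, used Bowtie2 2.1.0 to take out abundant sequences such as ribosomal and mitochondrial reads, aligned the rest to mm10 with STAR 2.4.0i and counted uniquely mapped reads per Gencode gene with HTSeq 0.6.1p1, without strand. The deposited counts are these raw counts. The deposited TPM were made by the authors from the counts and exon lengths. The table also held 92 ERCC entries and 5 summary entries, kept out of library sizes and tests (reads in no gene were 25.6% to 55.3% of the counted and summary reads).

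Genes over 1 CPM in at least 3 libraries (16513 of 35266) were tested in R 4.3.3 with edgeR 4.0.16 (quasi-likelihood test, TMM scaling, 4 groups in 1 fit, Benjamini-Hochberg adjustment, threshold 0.05). Alternatives used limma 3.58.1 and DESeq2 1.42.0. Scripts were tested on simulated data. The authors' own test was limma-voom. Replicates are separate mice. No 2 libraries shared equal counts at more than 0.543% of genes over 10 counts.

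The 5 receptors and the lists were chosen with earlier results of these data known. Named genes were the 5 receptors, their family members, Npy, Agrp, Pomc, Mrap2, up to 6 list genes with the lowest adjusted p below 0.05 in each comparison, and the 3 genes most like each receptor. Aldh1l1, Adcy2 and Arrb2 were named after their values were seen, and their values under the alternatives were not followed. Replicate numbers do not pair mice: the deviations of same-numbered libraries correlated at -0.19 to 0.12. The 4 tested receptors had 31 counts or more in every library. These counts are reads after amplification, so they do not give the number of transcripts sampled. The spread between libraries sets the precision. Its parts from the mouse, the cells picked and the amplification were not separated.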

Additional observations from a re-analysis of the deposited data

Results flagged for a closer look

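The change in AGRP neurons less that in POMC neurons differed from 0 by the interaction test (edgeR, adjusted p below 0.05) for Npy2r (-2.20). It also did so for the list genes Pcsk1 (1.58), Cpe (1.32), Pam (1.04), Gnas (1.02), Gnal (-0.85), Adcy2 (1.91), Adcy6 (-0.92) and Arrb1 (1.50).

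By Dixon's test at the 95% level, 9 of 92 combinations of gene and group held a library apart from the rest of its group. The 92 include groups at 0 in every library, as for Npy6r and Mc2r, which could not be flagged. The chance rate of 1 in 20 assumes normally spread values. It does not hold for Mc4r, Mc5r and Npy4r, where a few counts stand against values at or near 0, so the number of flags cannot be set against it. POMC FD replicate 4 had 376 TPM of Npy1r, against 316 TPM in the next library. POMC fed replicate 4 had 5.73 TPM of Mc4r and 17.2 TPM of Mc5r, against 0.063 and 0 TPM in the next libraries. POMC FD replicate 4 had 3.44 TPM of Mc5r (12 counts), and AGRP FD replicate 6 had 0.807 TPM (4 counts). AGRP FD replicate 5 had 0.438 TPM of Mc4r (8 counts), and AGRP fed replicate 2 had 0.065 TPM (1 count). POMC fed replicate 2 had 0.058 TPM of Npy4r (2 counts). POMC fed replicate 5 had 38.9 TPM of Agrp, against 12.0 TPM in the next library.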

How the results depend on the processing

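Across 10 alternatives and all 5 comparisons, 169 of 196 receptor values kept their direction and their side of the threshold, 7 lost the call, 8 gained it and 12 changed sign. Of 379 values of other named genes 324 were kept, 24 lost the call, 9 gained it, 8 changed sign and 14, all correlations of other genes with a receptor, moved by more than 1 SD of their leave-one-out values. Per-cell ERCC scaling, chosen after seeing the data because added volumes differ 10-fold between libraries, took away every receptor call: Npy2r went to -2.18 in AGRP FD against fed and to -1.19 in the interaction, Npy1r, Npy2r and Npy5r to -2.57, 1.84 and -1.60 between fed cell types, and Npy1r and Npy5r to -1.01 and -1.90 between FD cell types. It turned Npy2r between FD cell types to 0.65 and the Mc3r interaction to 1.13, Gnal to 0.027 in the interaction and Adcy6 to -0.013 in POMC FD. Receptors called were then 0 in each comparison, and genes called over the whole table fell to 97, 13, 297, 1117 and 119, from 1700, 62, 1250, 3064 and 1108. Under it the median gene was at -1.11 in POMC FD against fed, 1.10 between FD cell types and 1.04 in the interaction. The planned scaling by the ERCC sum alone called 0 receptors. The cause was not tested.

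Npy5r in AGRP FD against fed was called with the replicate block (-1.29) and on log2 TPM (-1.23), so that 2 receptors were called there. Mc3r between fed cell types was called by limma-voom (1.08), on log2 TPM (1.23) and on 2 groups alone (0.96). Npy2r between FD cell types was called by limma-voom (-0.75), with the replicate block (-0.67) and on log2 TPM (-0.82). DESeq2 called 378 genes in POMC FD against fed. On log2 TPM the share of calls that were higher was 26.9% in place of 57% in AGRP FD against fed, 62.7% in place of 44% between fed cell types, 36.1% in place of 50.0% between FD cell types and 24.3% in place of 60.8% in the interaction, with medians of all genes at -0.28, 0.20, -0.15 and -0.35. By limma-voom it was 48.6% in the interaction (median of all genes -0.10, and -0.13 in AGRP FD against fed), and with ERCC scaling per cell 15.4% in place of 48.4% in POMC FD, 79.9% between FD cell types and 84.0% in the interaction. With TMM CPM in place of TPM the order of the groups was the same for 2 of 4 receptors.

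None of the receptor values in POMC FD against fed was called under any alternative, and several near 0 changed sign: Npy1r by limma-voom (0.0084), DESeq2 (0.012), RLE scaling (0.012), the replicate block (0.0070), the spike-in set block (0.31) and log2 TPM (0.16); Npy2r on log2 TPM (0.023); Npy5r with the replicate block (0.027) and on log2 TPM (0.082); Mc3r with the spike-in set block (0.048). Mrap2 did so by limma-voom (0.022), DESeq2 (0.014), RLE scaling (0.014), the spike-in set block (0.22), the sorted cells covariate (0.061) and log2 TPM (0.15).

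With 1 library left out, Npy2r in AGRP FD against fed ran from -2.54 to -2.20 and stayed called, and Npy1r ran from 0.36 to 0.89, called only without AGRP fed replicate 5, where 2 receptors were called (range 1 to 2). Npy2r between FD cell types ran from -0.82 to -0.46. In POMC FD against fed the ranges were -0.14 to 0.14 for Npy1r, -0.23 to 0.10 for Npy2r, -0.28 to 0.069 for Npy5r and -0.14 to 0.12 for Mrap2, and 40 (without POMC FD replicate 3) to 111 genes (without POMC fed replicate 3) were called. Pomc in AGRP FD against fed ran from -0.51 to 0.086, and the Mc3r interaction from -0.55 to 0.058, positive only without POMC FD replicate 1. Npy was called in AGRP neurons without AGRP FD replicate 1 (1.87), Agrp in POMC neurons without POMC fed replicate 5 and the Mrap2 interaction without AGRP FD replicate 1 (-1.30). The replicate block pairs mice that share only a number, and it changed no other receptor call.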
